A study of Mus musculus with 9 samples.

Results

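Tbx1, Tbx2, Tbx3, Tbx4, Tbx5, Tbx15, Tbx18 and Tbx20 are 8 of the 33495 genes in the deposited table, matched to it by symbol, and all of them encode T-box transcription factors. They were picked for description with their levels in these libraries already known, so their own values are given here without tests. Their expression was read by RNA sequencing of RF8 cells, a line of mouse embryonic stem (ES) cells, after transfection of 1 of 3 constructs. These were a control construct for green fluorescent protein (EGFP), Nanog of wild type (WT), and Nanog with the L122A change (L122A), which the study counts among mutants of the DNA-binding homeodomain. Each transfectant was grown in 3 cultures, and each of the 9 combinations gave 1 library and no replicate. The LIF culture was routine KO-DMEM medium with 15% fetal calf serum, 1000 units/ml of leukaemia inhibitory factor and 2 µg puromycin. The no-LIF culture lacked the cytokine, and the RA culture lacked it and held 5 µM retinoic acid. Libraries are called by transfectant and culture, so that WT RA is the library labelled as wild-type Nanog grown in retinoic acid. The promoter of the constructs, the number of clones behind each transfectant and the time spent in each culture are not stated in the labels.

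T-box factors bind DNA through a shared domain, the T-box, and the family is ordered by ancestry into subfamilies. Tbx2, Tbx3, Tbx4 and Tbx5 arose from a pair of linked genes that was duplicated, so Tbx2 still lies beside Tbx4 and Tbx3 beside Tbx5. Tbx2 and Tbx3 act mainly as repressors in the heart, limb and other organ fields, while Tbx4 and Tbx5 are activators known for hindlimb and lung, and for forelimb and heart. In mouse ES cells Tbx3 is part of the gene network that LIF maintains, and forced Tbx3 expression has been linked with both self-renewal and endoderm differentiation. Tbx1, Tbx15, Tbx18 and Tbx20 belong to the Tbx1 subfamily. In this order they are known for the pharyngeal arches, the skeleton and dermis, the sinus node and epicardium, and the heart muscle. Retinoic acid acts through nuclear receptors on DNA and is a standard agent for making ES cells differentiate.

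In the mm9 coordinates of the table Tbx2 (ENSMUSG00000000093) spans chr11:85646053-85655450 and Tbx4 (ENSMUSG00000000094) chr11:85699924-85729597, both on the plus strand and 44.5 kb apart. Tbx3 (ENSMUSG00000018604) spans chr5:120120678-120134733 and Tbx5 (ENSMUSG00000018263) chr5:120284672-120334479, also on the plus strand and 149.9 kb apart. Tbx15 (ENSMUSG00000027868) lies at chr3:99044304-99158182 on the plus strand. On the minus strand lie Tbx18 (ENSMUSG00000032419) at chr9:87599040-87626095, Tbx20 (ENSMUSG00000031965) at chr9:24527648-24578746 and Tbx1 (ENSMUSG00000009097) at chr16:18581806-18588113. No other gene of the table overlaps any of the 8, so reads of an overlapping or antisense neighbour in the table cannot be mixed with theirs.

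The RefSeq promoter sequences used here, which are on the newer build GRCm38.p6, held 5 entries for 4 of the 8 genes (Tbx1 with 2 entries, Tbx4, Tbx18 and Tbx20). The 250 bases before the annotated start are shown for the 3 of these genes that reached 5 CPM (counts scaled to library size) in a library, all of them highest in an RA library. They are written on the strand of the gene from 5′ to 3′, and capitals mark CG dinucleotides, the sites of DNA methylation.
Tbx20 (chr9:24774304-24774553, minus strand): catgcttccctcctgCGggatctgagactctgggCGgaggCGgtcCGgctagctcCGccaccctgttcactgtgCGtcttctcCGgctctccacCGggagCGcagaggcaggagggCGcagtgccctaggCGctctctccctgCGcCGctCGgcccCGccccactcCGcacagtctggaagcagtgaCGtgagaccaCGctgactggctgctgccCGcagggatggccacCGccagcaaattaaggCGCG
Tbx18 (chr9:87731261-87731510, minus strand): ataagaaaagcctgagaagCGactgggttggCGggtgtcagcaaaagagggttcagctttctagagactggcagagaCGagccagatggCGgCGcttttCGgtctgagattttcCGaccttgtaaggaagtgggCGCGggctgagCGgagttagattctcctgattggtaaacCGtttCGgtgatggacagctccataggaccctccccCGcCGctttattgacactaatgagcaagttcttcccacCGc
Tbx4 (chr11:85896515-85896764, plus strand): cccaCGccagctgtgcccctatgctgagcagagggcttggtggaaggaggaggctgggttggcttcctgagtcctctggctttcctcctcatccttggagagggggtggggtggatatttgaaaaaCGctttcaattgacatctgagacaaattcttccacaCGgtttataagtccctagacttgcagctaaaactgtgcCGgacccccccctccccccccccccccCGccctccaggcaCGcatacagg
The Tbx20 window held 22 CG dinucleotides and was 68.8% G and C, the Tbx18 window held 15 at 54.0%, and the Tbx4 window held 6 at 58.4%. Over all 32851 promoter entries the median was 6 CG dinucleotides and 52.4% G and C, so Tbx20 and Tbx18 were CG-rich and Tbx4 had the median number. Both strands of each window were searched for AGGTCA, the half-site of retinoid receptors, for AGGTGT, the core of the T-box half-site, and for TTCNNNGAA, the STAT site. These letters were found in 14.0%, 11.8% and 7.02% of all entries, and none of the 3 motifs was found in the Tbx20, Tbx18 or Tbx4 window. The Tbx1 entry lying farther upstream (chr16:18590672-18590921) held 1 AGGTGT.

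Total counts per library ran from 24166395 (L122A LIF) to 28714988 (EGFP RA), and 13996 genes had at least 1 CPM, here by total count, in at least 3 libraries and were tested. The RA libraries stood apart: 48.2% of tested genes differed between RA and LIF in an additive edgeR model of transfectant and culture, against 0.0714% between no LIF and LIF, 0.322% between WT and EGFP and 2.88% between L122A and EGFP. RA against LIF called 3423 genes higher and 3328 lower, and with total-count scaling 4503 and 1945. The median log2 change of all tested genes was 0.011 in the first of these fits and 0.39 in the second. Because each combination is a single library, the p-values of this model ask whether an effect repeats over the transfectants, not over replicate cultures. Nanog, the transfected gene, was at 384, 223 and 239 CPM in the EGFP, WT and L122A LIF libraries, at 290.4, 168 and 129.9 CPM without LIF, and at 0.870, 195 and 258 CPM in RA. Its level thus followed the construct in the RA culture only, and was highest in EGFP in the other cultures. The table has 1 Nanog row, so RNA from the construct and from the chromosome cannot be told apart. The labelled cell type was checked with 8 ES cell markers (Pou5f1, Sox2, Zfp42, Sall4, Dppa5a, Lin28a, Tdgf1 and Dppa4), all detected in every library. Their summed level was 2031 to 5187 CPM in the 6 LIF and no-LIF libraries, and 37.7, 230.1 and 527 CPM in EGFP RA, WT RA and L122A RA.

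Tbx2, a repressor known for holding back cardiac chamber genes and cell cycle inhibitors, was nearly absent outside the RA culture. It had 0, 1 and 0 counts in EGFP LIF, WT LIF and L122A LIF, and 11, 2 and 0 counts in the same order without LIF. In the RA culture it had 1301, 671 and 338 counts, or 40.4, 21.0 and 9.48 CPM. Every RA library was above the other 6, and among the RA libraries the order was EGFP, WT, L122A with no overlap of the counting intervals. All intervals on single libraries are exact 95% binomial or Poisson intervals, which cover counting error only. RA over LIF was at least 403-fold in EGFP and at least 70.0-fold in L122A, against a floor of 3 counts per library for the zeros, and 426-fold in WT (76.2 to 16859) on its 1 count. Within the RA culture EGFP was 1.93-fold above WT (1.76 to 2.12) and 4.27-fold above L122A (3.78 to 4.82). The 11 counts in EGFP no-LIF, 0.420 CPM, were 5.14-fold above WT no-LIF (1.12 to 47.7).

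Tbx3, the member linked with the LIF network, was the most abundant of the 8 per length in every library. It stood at 22.1, 37.5 and 53.3 CPM in EGFP, WT and L122A with LIF, at 5.49, 8.44 and 10.6 CPM without LIF, and at 83.2, 247 and 284 CPM in RA. The cultures did not overlap: all no-LIF libraries were below all LIF libraries, and all RA libraries above both. Without LIF it was 4.02-fold lower in EGFP (3.36 to 4.85), 4.45-fold in WT (3.81 to 5.21) and 5.04-fold in L122A (4.35 to 5.87). RA over LIF was 3.76 in EGFP (3.46 to 4.10), 6.58 in WT (6.11 to 7.10) and 5.32 in L122A (5.01 to 5.66). Against the no-LIF culture, which also lacked the cytokine, RA was 15.1-fold higher in EGFP, 29.3-fold in WT and 26.8-fold in L122A. The RA comparisons share their RA libraries and are shown side by side as descriptions.

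The order of the transfectants for Tbx3 was EGFP below WT below L122A in all 3 cultures, an order that 2.21% of tested genes had. L122A exceeded EGFP 2.41-fold with LIF (2.19 to 2.66), 1.93-fold without LIF (1.55 to 2.40) and 3.41-fold in RA (3.27 to 3.56). WT exceeded EGFP 1.70-fold (1.53 to 1.89), 1.54-fold (1.24 to 1.92) and 2.97-fold (2.84 to 3.10). The nearest neighbours in this order were WT and L122A, which differed 1.42-fold with LIF (1.30 to 1.56), 1.25-fold without LIF (1.03 to 1.53) and 1.15-fold in RA (1.12 to 1.18). Scaled by total counts in place of TMM factors, the no-LIF ratio of L122A to WT was 1.08, so these libraries were close in that culture.

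Tbx4, known for hindlimb and lung, was low in all libraries and highest in RA. It was at 1.97, 1.87 and 2.48 CPM in EGFP, WT and L122A with LIF, at 0.725, 1.22 and 2.23 CPM without LIF, and at 7.83, 11.6 and 6.62 CPM in RA. RA over LIF was 3.97 in EGFP (2.98 to 5.36), 6.22 in WT (4.45 to 8.93) and 2.67 in L122A (1.98 to 3.64), so the RA libraries did not overlap the rest. A lower level without LIF was seen beyond counting error in EGFP only, at 0.367 of the LIF level (0.207 to 0.625), while the WT ratio of 0.655 (0.392 to 1.08) and the L122A ratio of 0.897 (0.590 to 1.36) had intervals that include 1. In RA WT was the highest, 1.48-fold above EGFP (1.26 to 1.75), and the ratio of L122A to EGFP was 0.845 (0.704 to 1.01).

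Tbx5, known for the heart and forelimb, was detectable above single counts only in the Nanog transfectants in RA. It had 1, 0 and 1 counts with LIF, 0 in each library without LIF, and 3, 32 and 40 counts in EGFP RA, WT RA and L122A RA. The last of these is 1.12 CPM, and the last 2 did not differ beyond counting error (L122A over WT 1.12, 0.687 to 1.84). In RA, WT was 10.7-fold above EGFP (3.36 to 54.7) and L122A 12.0-fold (3.83 to 60.8). EGFP RA was nominally above all LIF and no-LIF libraries, but its interval of 0.0192 to 0.273 CPM overlaps that of L122A LIF, 0.00114 to 0.251 CPM.

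**Figure D1:**
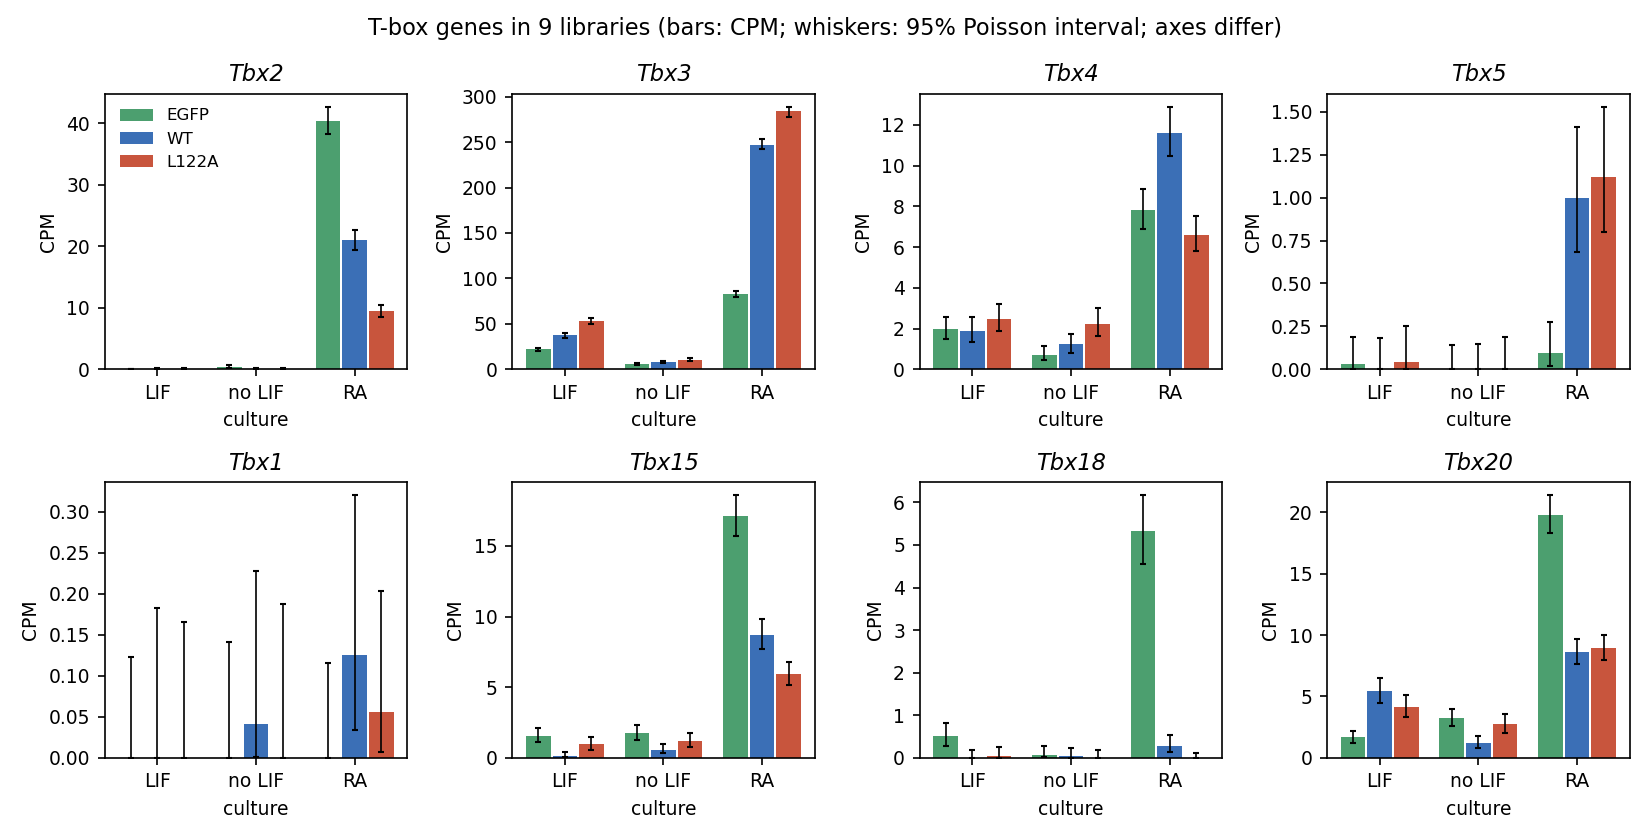
Level of each T-box gene in CPM (vertical axes, linear, each on its own scale) in the LIF, no-LIF and RA cultures (horizontal axis) of EGFP (green), WT (blue) and L122A (red) cells. Each bar is 1 library and each whisker its 95% Poisson interval; Tbx2 falls from 40.4 to 9.48 CPM from EGFP RA to L122A RA while Tbx3 runs from 83.2 to 284 CPM.

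In the Tbx1 subfamily, Tbx15, known for the skeleton and the dermis, was also highest in RA and was highest there in EGFP. It was at 1.57, 0.148 and 0.948 CPM in EGFP, WT and L122A with LIF, at 1.75, 0.571 and 1.16 CPM without LIF, and at 17.1, 8.72 and 5.92 CPM in RA. RA over LIF was 10.9 in EGFP (8.05 to 15.0) and 6.24 in L122A (3.98 to 10.3). The WT ratio of 59.1, whose interval starts at 20.0, stands on 3 counts in WT LIF. EGFP was the highest of the 3 transfectants in every culture, and in RA it was 1.96-fold above WT (1.69 to 2.27) and 2.88-fold above L122A (2.46 to 3.40). The order of WT and L122A was not the same in all cultures: WT was the lowest with and without LIF and L122A the lowest in RA.

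Tbx20, a factor of the heart muscle, was detected in all 9 libraries and had the least regular pattern. With LIF it was at 1.67, 5.41 and 4.15 CPM in EGFP, WT and L122A, without LIF at 3.24, 1.22 and 2.73 CPM, and in RA at 19.8, 8.63 and 8.94 CPM. EGFP was therefore the lowest of the 3 with LIF and the highest in both other cultures. RA over LIF was 11.8 in EGFP (8.87 to 16.1), against 1.59 in WT (1.27 to 2.01) and 2.15 in L122A (1.70 to 2.75). Without LIF the EGFP library was 1.94-fold above its LIF level (1.35 to 2.81), WT was 4.42-fold below (2.93 to 6.86) and L122A 1.52-fold below (1.07 to 2.17). In RA, WT and L122A did not differ beyond counting error (L122A over WT 1.04, 0.880 to 1.22).

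Tbx18, known for the sinus node and the epicardium, was at more than trace level in EGFP only. It had 15, 2 and 171 counts in EGFP LIF, EGFP no-LIF and EGFP RA, which are 0.502, 0.0763 and 5.32 CPM. The WT libraries had 0, 1 and 9 counts and the L122A libraries 1, 0 and 0 counts in the same order of cultures. In RA, EGFP was 18.9-fold above WT (9.72 to 42.0) and at least 63.2-fold above L122A, for whose 0 counts the floor of 3 counts is 0.0841 CPM. Within EGFP, RA over LIF was 10.6 (6.25 to 19.3). Tbx1, known for the pharyngeal arches, had 7 counts over all 9 libraries and at most 0.125 CPM (4 counts, WT RA), and no ratio is given for it.

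**Figure D2:**
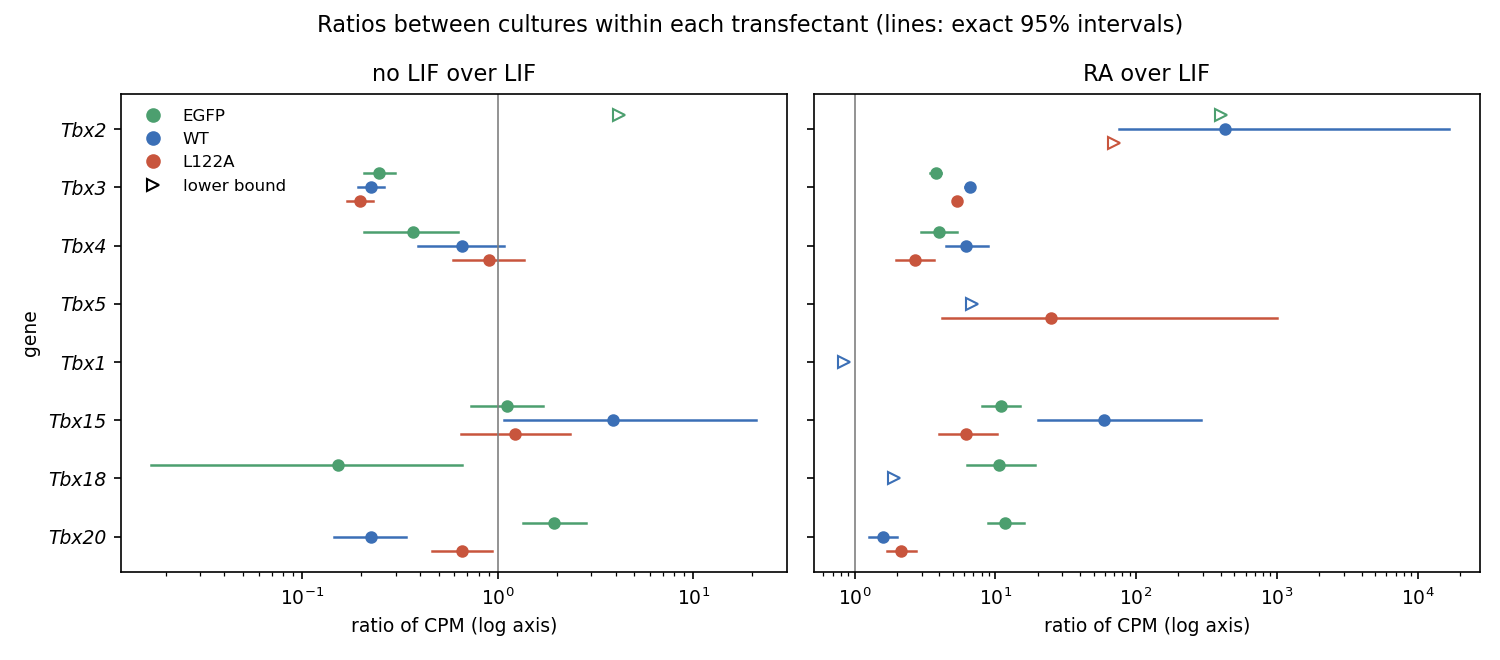
Ratio of CPM between cultures within each transfectant (horizontal log axes) for each T-box gene (vertical axis), with no LIF over LIF on the left and RA over LIF on the right. Points are ratios with exact 95% intervals, open triangles are lower bounds from the floor of 3 counts, and genes with 3 counts or fewer on both sides have no point; Tbx3 alone lies below 1 on the left in all 3 transfectants with intervals that exclude 1.

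Read against the rest of the table, 6 of the 8 genes (Tbx2, Tbx3, Tbx4, Tbx5, Tbx15 and Tbx20) had all RA libraries above the other 6, a pattern that 22.5% of tested genes had. All no-LIF libraries lay below all LIF libraries for Tbx3 alone, a pattern of 5.29% of tested genes. Of the 8, 5 passed the filter (Tbx2, Tbx3, Tbx4, Tbx15 and Tbx20), and Tbx2 passed through its 3 RA libraries alone. Because the genes were chosen on these values, nothing is read from these counts.

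The make-up of the 8 genes within a library, which needs no scaling between libraries, separated the transfectants in RA. Shares are of the summed count per feature length of the 8 genes. Tbx3 held 72.8%, 78.7% and 83.3% in EGFP, WT and L122A with LIF, 39.2%, 64.8% and 55.1% without LIF, and 39.2%, 76.9% and 86.1% in RA. Tbx2 held 27.6% in EGFP RA, 9.45% in WT RA and 4.16% in L122A RA. Tbx15 and Tbx20 held 11.3% and 12.1% in EGFP RA, and 17.6% and 30.0% in EGFP no-LIF. The library without LIF and the library in RA thus had the same Tbx3 share in EGFP, with Tbx20 second in the former and Tbx2 in the latter.

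The sum of the 8 genes in FPKM (counts per length and per library total) was 6.03, 7.46 and 11.2 with LIF, 2.60, 2.32 and 2.96 without LIF, and 45.3, 74.9 and 78.8 in RA, in the order EGFP, WT, L122A. Of these sums Tbx3 made 17.8, 57.6 and 67.9 FPKM in RA and Tbx2 12.5, 7.08 and 3.28 FPKM. Per length, Tbx3 over Tbx2 was 1.42 in EGFP RA (1.33 to 1.52), 8.14 in WT RA (7.52 to 8.82) and 20.7 in L122A RA (18.6 to 23.1). The ratio of the linked pair Tbx2 and Tbx4 went the other way, from 4.84 in EGFP RA (4.23 to 5.56) to 1.69 in WT RA (1.49 to 1.92) and 1.34 in L122A RA (1.13 to 1.59). In the other linked pair, Tbx3 exceeded Tbx5 by 543 per length in EGFP RA (186 to 2633), by 150.2 in WT RA (106 to 219.8) and by 154 in L122A RA (113 to 216).

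**Figure D3:**
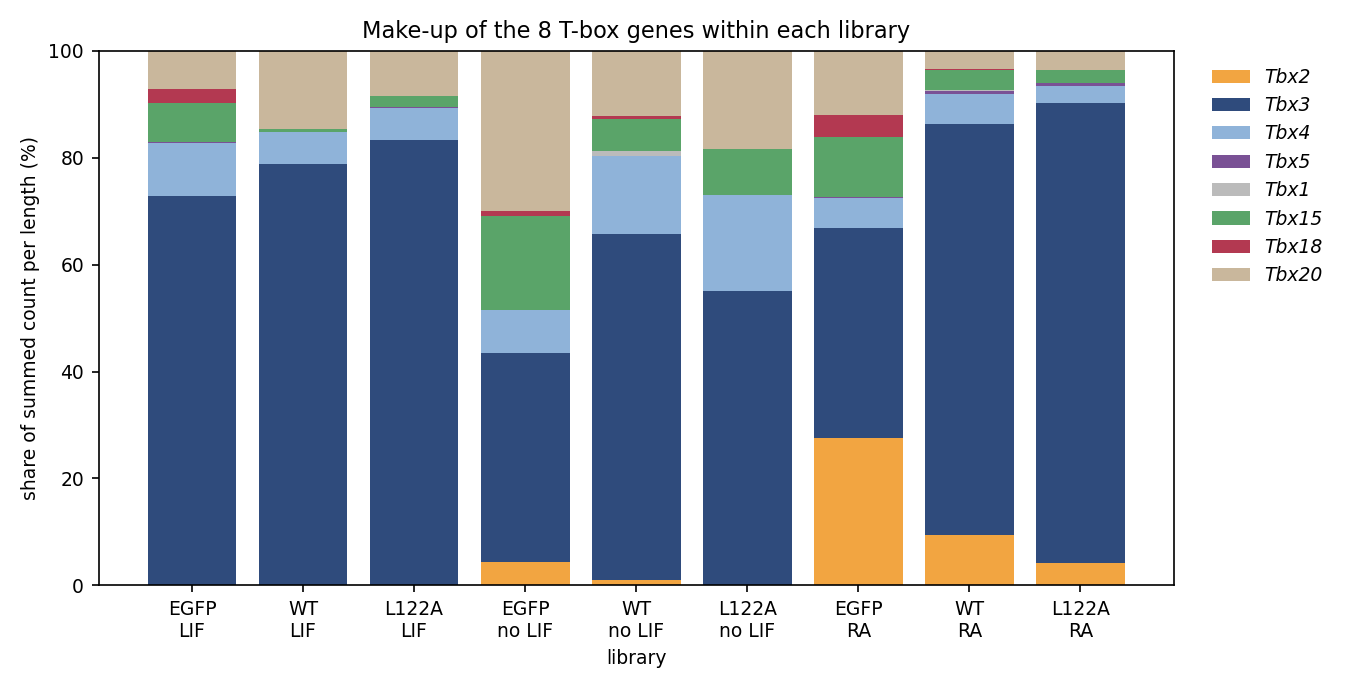
Share of each of the 8 T-box genes in their summed count per feature length (vertical axis, %) in each of the 9 libraries (horizontal axis). Tbx3 (dark blue) makes the largest share in every library, and Tbx2 (orange) takes 27.6% in EGFP RA, 9.45% in WT RA and 4.16% in L122A RA.

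Marker sums of other cell types did not all move alike. The fibroblast and extraembryonic endoderm sums were highest in EGFP RA, and the cardiac muscle sum in L122A RA. The summed level of 8 fibroblast markers (Col1a1, Col1a2, Col3a1, Dcn, Lum, Postn, Pdgfrb and Thy1) was 402 CPM in EGFP RA, 54.6 in WT RA and 22.3 in L122A RA, and 8.05 to 28.0 CPM in the other 6 libraries. Lum was at 0 in 8 of the 9 libraries. The summed level of 9 extraembryonic endoderm markers (Gata6, Gata4, Sox17, Foxa2, Dab2, Lama1, Lamb1, Col4a1 and Sparc) was 3684 CPM in EGFP RA, 2505 in WT RA and 923 in L122A RA, and 174 to 1108 CPM elsewhere. Sparc alone made 3134, 1592 and 655 CPM of the 3 RA sums, while 7 of the 9 markers were highest in WT RA and only Gata6 and Sparc in EGFP RA. The 8 cardiac muscle markers (Myh6, Myh7, Tnnt2, Actn2, Nppa, Myl7, Ryr2 and Tnni3) summed to 19.4, 23.4 and 50.7 CPM in RA and to 6.52 to 31.2 CPM elsewhere, with Tnnt2 or Nppa at 0 in 4 of these 6. Myl7 alone made 12.8, 19.6 and 44.8 CPM of the 3 RA sums. The cardiac markers did not share a direction. In RA Actn2 was below its LIF level in EGFP and WT, with 14 counts in L122A LIF and 13 in L122A RA. Tnnt2 had 0 counts in each LIF library and 33, 3 and 19 counts in EGFP RA, WT RA and L122A RA. The order EGFP, WT, L122A of Tbx2, Tbx15 and Tbx18 in RA was also the order of the fibroblast and extraembryonic endoderm sums. The ES marker and cardiac muscle sums had the reverse order. Of the fibroblast sum in EGFP RA, Col1a1 made 172 CPM and Col3a1 139 CPM. Among the 3 RA libraries 7 of the 8 fibroblast markers were highest in EGFP. Over all libraries Thy1 was instead highest in L122A LIF, at 11.6 CPM. Thy1 fell in RA to 0.421 CPM in L122A and from 4.08 to 0.188 CPM in WT, with 1.37 and 1.96 CPM in EGFP LIF and EGFP RA. The part of these markers in the T-box levels was not tested. In bulk RNA, fewer cells of a type and less RNA per cell cannot be told apart.

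The genes whose log2 CPM ran closest to each member over the 9 libraries were sought among 11672 other tested genes with at least 5 CPM in a library, as a description over points that share libraries and the RA shift. For Tbx2 they were Srr (Pearson r 0.995), Spin4 (0.994) and Hook3 (0.993), with 349 genes above 0.95. With a prior count of 0.5 in place of 2, the 3 nearest to Tbx2 were Tmco3, Thsd4 and Kif1b, so at this depth the many near ties have no stable order. Tbx3 had 9 genes above 0.95, led by Kank4 (0.970), Obsl1 (0.965) and Wdr8 (0.963) under both prior counts. Kank4 ran from 3.70 CPM in L122A LIF to 1.97 in L122A no-LIF and 32.8 in L122A RA, and from 2.61 to 1.26 and 7.89 CPM in EGFP. The nearest to Tbx4 were Ikbkb (0.987), Spock3 (0.985) and Uckl1 (0.979), and 38 genes were above 0.95.

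In the Tbx1 subfamily the nearest to Tbx15 were Bgn (0.991), Scand1 (0.978) and Plagl1 (0.977), with 61 genes above 0.95. With a prior count of 0.5 Bgn stayed first, followed by Col3a1 and Scarf2. Bgn, which encodes a matrix proteoglycan, was at 16.8, 6.66 and 6.95 CPM in EGFP RA, WT RA and L122A RA. The nearest to Tbx20 were 6530418L21Rik (0.972), Nagk (0.967) and Prkar1a (0.966), with 13 above 0.95. Tbx18 had 1 gene above 0.95, the collagen gene Col1a1 (0.955), followed by Plec1 (0.937) and Rtn4 (0.928). With a prior count of 0.5 Col1a1 was still first for Tbx18 but at 0.948, so no gene was above 0.95, and Khdrbs3 took the place of Plec1. Col1a1, itself in the fibroblast list, was at 19.3, 14.3 and 172 CPM in EGFP LIF, EGFP no-LIF and EGFP RA and at 2.31 to 17.2 CPM in the other 6 libraries.

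Within 500 kb of the linked pairs 7 other genes were tested, 6 near Tbx2 and Tbx4 and Rbm19 near Tbx3 and Tbx5. In RA against LIF 2 rose and 1 fell by edgeR at an adjusted p below 0.05, where 48.2% of all tested genes were called. Med13 (chr11:86080535-86171104), a subunit of the Mediator kinase module, rose 3.05-fold (log2 change 1.61, SE 0.22, adjusted p 0.00103), from 87.0 to 137 CPM with LIF to 314 to 329.6 CPM in RA. Ppm1d (chr11:85124746-85160568), a phosphatase of the p53 response, rose 1.62-fold (adjusted p 0.0105), a call lost without WT RA. Ints2 (chr11:86024183-86071077), a subunit of the Integrator complex, fell 1.43-fold (adjusted p 0.0252), a call lost with total-count scaling (adjusted p 0.614), without the filter (0.0929), with limma (0.630), with the 6 libraries compared alone (0.0559), and without the LIF or RA library of EGFP or WT or without L122A LIF. AL592065.2, not called here (log2 change 0.61, adjusted p 0.114), was called higher with total-count scaling (adjusted p 0.0260), with limma (0.0254) and with the 6 libraries (0.0424), so that with total-count scaling 3 of the neighbours rose and 0 fell. Bcas3, which ends just before Tbx2, was at 12.1 to 22.8 CPM in all 9 libraries (log2 change 0.22, adjusted p 0.471).

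The other T-box genes of the mouse are given beside the 8. Of 9 listed (T, Eomes, Tbr1, Tbx6, Tbx10, Tbx19, Tbx21, Tbx22 and Mga), 2 passed the filter. Eomes, a factor of the primitive streak and trophoblast, was at 2.81, 16.0 and 1.71 CPM in EGFP LIF, EGFP no-LIF and EGFP RA and at 1.94 to 6.03 CPM in the Nanog transfectants (RA against LIF log2 change 0.16, SE 0.62, adjusted p 0.846). Mga, a large repressor with a T-box and a Max-binding domain, was at 118 to 212 CPM (log2 change 0.00, SE 0.23, adjusted p 0.997). T, the mesoderm factor brachyury, was at 6.72, 105 and 0 CPM in EGFP LIF, EGFP no-LIF and EGFP RA and at most at 0.640 CPM in the other 6 libraries. The peak of T in EGFP no-LIF stood in the same library as the 11 counts of Tbx2 and the 30.0% share of Tbx20.

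Factors that work with T-box proteins in the heart and limb rose in part in RA. Of 13 partner factors 11 were tested in RA against LIF, and 5 rose (Hand2, Gata6, Mef2c, Gata4 and Myocd), 1 fell (Sall1) and 5 were not called, against 24.5% higher and 23.8% lower among all tested genes. Hand2, Gata6 and Mef2c passed the filter through their 3 RA libraries alone and so had to be higher there, and of the other 8 partner factors 2 rose and 1 fell. The median log2 change of the 11 was 1.41, beside 0.01 for all tested genes. Gata6, a zinc-finger factor of endoderm and heart, rose 31.3-fold (log2 change 4.97, SE 0.71, adjusted p 0.00122), and without WT LIF, L122A LIF or L122A RA the change was 4.23, 6.03 and 5.64. Hand2, a factor of the limb and heart fields, had no count in any LIF library and rose at least 49.3-fold, against a floor of 3 counts over the group, to 3.61, 1.41 and 1.21 CPM in EGFP RA, WT RA and L122A RA. Sall1, a zinc-finger factor of the limb and kidney, fell 5.42-fold (log2 change -2.44, SE 0.57, adjusted p 0.00962), and by 1.52 on the log2 scale without EGFP LIF. Without WT LIF or WT RA the number that rose was 3.

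Signals of the organ fields where T-box genes act were mostly called higher in RA. Of 11 such genes 8 were tested, and 6 rose in RA against LIF (Foxc2, Foxc1, Wnt2b, Bmp2, Wnt5a and Bmp7) and 2 were not called (Bmp4 and Fgf10), with a median log2 change of 2.68. Among all tested genes 24.5% were called higher. Foxc2 passed the filter through the RA libraries alone, and of the other 7 signals 5 rose. Foxc1, a forkhead factor of mesoderm, rose 17.1-fold (log2 change 4.10, SE 0.54, adjusted p 8.66e-04). Foxc2, its close relative, rose 69.4-fold (log2 change 6.12, SE 0.95, adjusted p 0.00319), with a change of 4.99 without EGFP LIF, 5.04 without EGFP RA, 8.58 without WT LIF and 8.29 without WT RA. Wnt2b and Wnt5a were near their LIF level in L122A RA, at 0.729 against 0.722 CPM and at 1.63 against 1.13 CPM, and highest in EGFP RA, at 21.9 and 28.4 CPM. The number that rose was 3 without WT RA, without WT LIF and without EGFP LIF.

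Genes that Tbx2 or Tbx3 are known to repress did not move in 1 direction. Of 8 listed 5 were tested in RA against LIF, and 1 rose (Cdkn1a), 1 fell (Ndrg1) and 3 were not called (Cdkn2a, Cdh1 and Gja1), with a median log2 change of 0.50. For this list and the corepressors below, the shares among all tested genes were 24.5% higher and 23.8% lower. With total-count scaling, and without EGFP RA or L122A RA, 2 rose. Cdkn1a, the cell cycle inhibitor p21, rose 4.32-fold (log2 change 2.11, SE 0.31, adjusted p 0.00135), to 275, 101 and 98.5 CPM in EGFP RA, WT RA and L122A RA. Ndrg1, a differentiation-linked gene, fell 6.67-fold (log2 change -2.74, SE 0.59, adjusted p 0.00631), with a change of -3.33 without EGFP LIF, -3.48 without EGFP RA and -2.08 without L122A LIF. Cdkn1a rose in the culture where Tbx2 and Tbx3 were highest, and a link between their levels was not tested. Of 8 corepressors and partners of repression 7 were tested, and 1 rose (Tle3) and 1 fell (Hdac1), with a median of 0.13. Tle3, a Groucho-type corepressor, rose 2.85-fold (adjusted p 0.00718), and the histone deacetylase gene Hdac1 fell 2.72-fold (adjusted p 6.57e-04). With total-count scaling 3 of the corepressors rose, without EGFP LIF 2 rose, and without L122A RA 2 fell.

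In the LIF network around Tbx3 all 12 genes were tested. In RA against LIF 3 rose (Jak1, Stat3 and Il6st), 5 fell (Pou5f1, Sox2, Socs3, Klf4 and Klf5) and 4 were not called (Lifr, Nanog, Esrrb and Tfcp2l1), with a median log2 change of -1.08. Over the transfectants, the higher Tbx3 level in RA thus stood beside called falls of some pluripotency factors and called rises of LIF signal transducers. Among all tested genes 24.5% were called higher and 23.8% lower. In L122A RA, the library with the most Tbx3, Pou5f1, Sox2, Socs3 and Klf4 were below their L122A LIF level. Klf5 was at 148 and 149.7 CPM in L122A LIF and L122A RA, and Il6st at 50.2 and 53.2 CPM. Tfcp2l1, not called, was at 52.6 and 87.3 CPM there, but fell in EGFP and WT. Stat3, the transcription factor LIF activates, rose 2.26-fold (log2 change 1.18, SE 0.21, adjusted p 0.00255), and Jak1, its kinase, 3.49-fold (adjusted p 3.25e-04). Pou5f1 fell 33.0-fold (log2 change -5.05, SE 1.14, adjusted p 0.00828), with changes of -4.00 without EGFP RA, -5.99 without L122A LIF and -6.65 without L122A RA. Sox2 fell 9.44-fold (log2 change -3.24, SE 0.74, adjusted p 0.00885), with changes of -2.34 without EGFP LIF, -2.59 without EGFP RA, -3.92 without L122A LIF and -4.28 without L122A RA. Without WT LIF 3 of the network fell.

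Without LIF 2 of the network fell by edgeR, where 0.0572% of tested genes were called lower. Klf4, a LIF-induced pluripotency factor, fell 10.2-fold (log2 change -3.35, SE 0.30, adjusted p 0.0160), from 76.7 to 4.73 CPM in EGFP and from 87.2 to 7.75 CPM in WT, with 15.7 CPM left in L122A. This call was lost without L122A LIF and without either WT LIF or WT no-LIF. Stat3 fell 3.26-fold (adjusted p 0.0445), a call lost under total-count scaling, with limma (adjusted p 0.150) and without any single library except EGFP RA or L122A RA. Klf4 and Tbx3 were both lower without LIF in all 3 transfectants, and in RA Klf4 was at 18.3 to 24.3 CPM, below its LIF level, where Tbx3 was above it. In the lists of partner factors, repressed genes, corepressors and signals the smallest adjusted p without LIF was 0.290 (Eya1), 0.705 (Gja1), 0.130 (Aes) and 0.523 (Foxc2). DESeq2 called 1 partner factor, 1 corepressor and 5 genes of the network lower in that comparison.

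Against the no-LIF culture, which like RA lacked the cytokine, 22.6% of tested genes were called higher in RA and 21.9% lower. Of the partner factors 7 rose and 1 fell, led by Gata6 (100.4-fold, adjusted p 7.30e-04), and without the 3 that passed the filter through RA alone 4 of 8 rose. The fall was that of Sall1, lost under total-count scaling, without the filter (adjusted p 0.152), with limma (0.133) and without any single library except EGFP LIF, EGFP no-LIF or L122A LIF, and 4 rose without WT RA. Of the 8 signals 5 rose, 4 of them apart from Foxc2. Foxc2, at 0 in all no-LIF libraries, rose at least 195-fold. Without WT no-LIF or WT RA 3 signals rose. Of the LIF network 5 rose and 2 fell: Stat3 rose 7.37-fold (adjusted p 2.49e-04) and Klf4 2.39-fold (adjusted p 0.00812), so Klf4 lay between its no-LIF and LIF levels in RA. The falls of Pou5f1 (22.0-fold) and Sox2 (5.42-fold) were both lost without WT RA and without the filter (adjusted p 0.124 and 0.156), that of Sox2 also without WT no-LIF or L122A no-LIF and under total-count scaling, and 3 of the network rose without WT RA. Of the corepressors 3 rose and 1 fell, with 2 that fell without EGFP LIF or L122A RA. Of the repressed genes Cdkn1a rose (4.02-fold) and Ndrg1 fell (5.78-fold), with 2 that rose without L122A no-LIF, and 2 each way without L122A RA. Some sizes moved with single libraries: the log2 change of Gata6, 6.65, was 5.97 without WT RA, and that of Ndrg1, -2.53, was -3.38 without EGFP RA. That of Pou5f1, -4.46, was -3.44 without EGFP RA, -5.18 without L122A no-LIF and -6.19 without L122A RA, and that of Sox2, -2.44, was -1.72 without WT no-LIF and -3.53 without L122A RA.

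**Figure D4:**
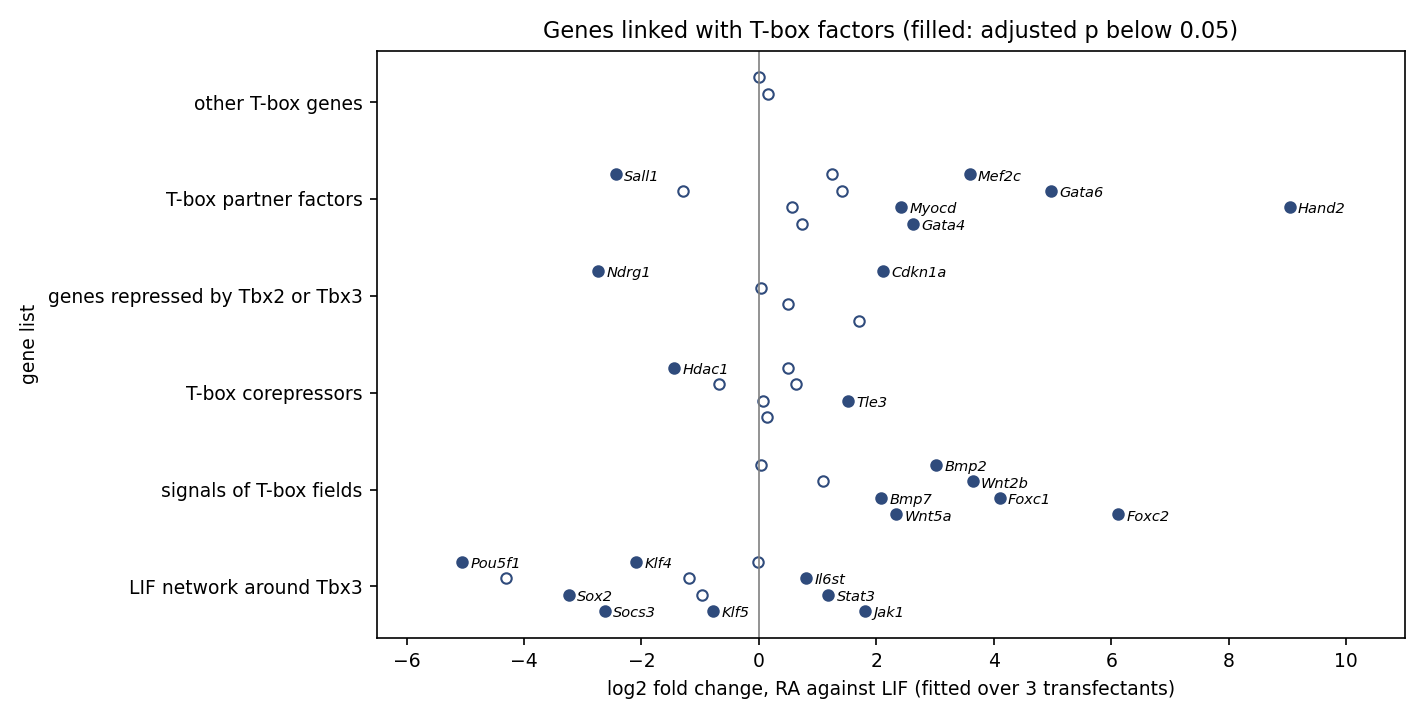
Fitted log2 fold change of RA against LIF over the 3 transfectants (horizontal axis) for each tested gene of the lists linked with T-box factors (vertical axis). Filled points passed an adjusted p below 0.05 in the additive edgeR model and are named, open points did not; 6 of 8 signals of T-box fields lie filled on the right, while the LIF network has 5 filled on the left and 3 on the right, and the Hand2 point is a fitted value against LIF libraries at 0.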

How the data were processed

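RNA of 9 libraries was sequenced, and reads were placed on mm9 with TopHat2 2.0.11, per the submitters' processing notes. Neither the counter nor its use of strand is given in the sources used here. Each raw count per gene was deposited by the authors without normalization, per the file headers. The FPKM values deposited by the authors equal the count over feature length and total count within 1% for all genes above 5 FPKM. Columns for no LIF and RA carry the titles' words, L122 was read as L122A, and a column word found in no label was by elimination taken as the LIF culture, a step no label backs. Start positions were moved by 1 base to the 1-based convention.

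CPM is the count over the total times the TMM factor (0.81 to 1.255). The 13996 genes that reached 1 CPM in 3 or more libraries, by total count without these factors, were fitted with edgeR 4.0.16 in R 4.3.3 (quasi-likelihood, robust, transfectant plus culture, biological coefficient of variation 0.325 on 4 residual degrees of freedom), with Benjamini-Hochberg adjusted p below 0.05 as the threshold. The spread is the departure from additivity. The SE is the absolute log2 change over the square root of F. Single libraries were compared with exact 95% intervals in scipy 1.17.1, with 3 counts as the floor for a 0. Alternatives were RLE factors, total-count scaling, no filter, DESeq2 1.42.0, limma 3.58.1 on log2(FPKM + 1), the 6 libraries compared alone, each library left out, and a prior count of 0.5. Code was tested on simulated data.

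The members and lists were chosen with earlier results of these data known. All 88 list genes were matched, 3 by identifier, and some genes first put in the lists are not reported here. Genes named are the 8 members, Nanog, tested genes among the other T-box genes, up to 2 called genes in each direction per list and culture contrast, called neighbours within 500 kb, and the 3 genes most like each member that reached 5 CPM. Bcas3, Rbm19, AL592065.2, T, Wnt2b, Wnt5a, Klf5, Il6st, Tfcp2l1, Eya1, Gja1 and Foxc2 without LIF were named in addition after their values were seen.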

Additional observations from a re-analysis of the deposited data

Results flagged for a closer look

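Several ratios between single libraries lay on opposite sides of 1 in different cultures or transfectants. With TMM factors each had a 95% counting interval that excludes 1. The differences between these ratios were not tested, and each rests on 1 library per combination. Tbx4 in L122A over WT was 1.82 without LIF and 0.569 in RA. Tbx15 in L122A over WT was 6.42 with LIF and 2.04 without LIF, against 0.678 in RA. For both genes the no-LIF ratio depends on the scaling. By total counts, L122A no-LIF and WT no-LIF had 1.80 and 1.15 CPM of Tbx4, and 0.943 and 0.537 CPM of Tbx15. The counting intervals of these no-LIF ratios then include 1. Tbx20 without LIF over LIF was 1.94 in EGFP, against 0.226 in WT and 0.658 in L122A. Tbx20 in WT over EGFP was 3.24 with LIF, against 0.377 without LIF and 0.436 in RA, and in L122A over EGFP it was 2.48 with LIF and 0.452 in RA. Behind them stand 30 to 637 counts per library for Tbx20, 30 to 372 for Tbx4 and 3 to 279 for Tbx15 in WT and L122A.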

How the results depend on the processing

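No ratio of a T-box gene with counts in both libraries turned its direction with RLE factors or total-count scaling. Of 105 ratios and floor bounds, 17 moved with the latter. The ratios among these left their counting interval, such as Tbx3 in RA over LIF, at 9.82 in WT and 7.28 in L122A. The others were bounds without an interval: RA over no LIF in L122A went from at least 62.4 to 96.7 for Tbx2 and from 7.38 to 11.4 for Tbx5. With total-count scaling the median log2 change of all tested genes was 0.39 for RA against LIF (4503 higher, 1945 lower). For RA against no LIF it was 0.43 (4456 and 1679). With TMM factors these medians were 0.011 and 0.021. The number of genes called for no LIF against LIF, 10, was 2 with total-count scaling, 37 without the filter, 90 with the 6 libraries compared, 278 with DESeq2, 4 with limma and 0 to 44 with 1 library left out. For WT against EGFP, 45 became 22, 138, 99, 614 and 19 in this order, and 0 to 148. For L122A against EGFP, 403 became 253 with total-count scaling, 545 without the filter, 82 with the 6 libraries, 1438 with DESeq2, 217 with limma and 24 to 558 with 1 library left out. RA against LIF, 6751, ran from 4232 to 6680 and RA against no LIF, 6235, from 3615 to 6314 with 1 library left out. Without the filter the falls of Sall1, Pou5f1 and Sox2 in RA against LIF missed the threshold (adjusted p 0.0559, 0.0933 and 0.0786). The causes were not tested. A difference in genes with a few counts per library, such as Tbx1, was not detectable at this depth. Each combination has 1 library, so there were no replicates to pair. Each culture contrast was fitted with transfectant as a term, which compares the cultures within transfectants.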
